A study of Rattus norvegicus with 4 samples.

Results

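De novo lipogenesis, the making of fatty acids from acetyl groups, was followed through 10 genes in rat liver RNA: Acly, Acss2, Acaca, Acacb, Fasn, Scd1, Elovl5, Me1, Thrsp and Mlxipl. Their rows were taken by gene symbol from a table of 32545 genes, and each symbol had 1 row. The set was selected on values of these same 4 libraries, the changes between the groups and the levels of Scd1 in each library among them. What follows therefore describes the set and does not test it. The study sequenced liver messenger RNA from rats under sleep restriction with forced activity (2 libraries) and from rats under forced activity alone, the control (2 libraries). Forced activity, in which animals are kept moving, was shared by both groups. Strain, sex, age, length of the restriction and feeding state are not given in the sources used here. GEO's labels do not say that the 2 libraries of a group came from separate animals, so p-values measure only the spread between these libraries, which may be technical.

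Lipogenesis runs when the liver has sugar to spare. Citrate leaves the mitochondria and is split into acetyl-CoA, carboxylases turn acetyl-CoA into malonyl-CoA, a synthase builds palmitate, and elongases and desaturases finish the chain. Transcription of these genes is known to follow feeding, through the insulin-responsive factor SREBP-1c and the carbohydrate-responsive factor ChREBP, and to be low in fasting. Scd1, stearoyl-CoA desaturase, puts the double bond into stearate and palmitate and is a classical diet-responsive gene of rodent liver.

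The promoters of some of these genes are shown for reference, and their part in the differences between libraries was not tested. Windows of 300 bases, 250 before and 50 after the start of transcription, were read from RefSeq sequences of the GRCr8 build, a different build from the one in the submitters' processing notes. Of the 10 genes, 8 matched an entry, Scd1 under its RefSeq symbol Scd; Fasn and Acaca are named only. The promoters of Scd1 and Thrsp are given as those of genes with wide variation between the libraries of both groups, and that of Acly as the gene at the head of the pathway. Capitals mark matches to CCAAT (the NF-Y box) or GGGCGG (the GC box) on either strand.
Scd1 (chr1:253231682-253231981, minus strand): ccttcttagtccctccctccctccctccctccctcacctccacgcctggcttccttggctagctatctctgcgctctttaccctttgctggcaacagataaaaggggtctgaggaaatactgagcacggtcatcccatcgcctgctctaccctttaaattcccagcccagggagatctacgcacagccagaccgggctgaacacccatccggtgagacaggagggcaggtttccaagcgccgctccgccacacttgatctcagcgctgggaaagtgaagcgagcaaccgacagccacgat
Thrsp (chr1:161138915-161139214, minus strand): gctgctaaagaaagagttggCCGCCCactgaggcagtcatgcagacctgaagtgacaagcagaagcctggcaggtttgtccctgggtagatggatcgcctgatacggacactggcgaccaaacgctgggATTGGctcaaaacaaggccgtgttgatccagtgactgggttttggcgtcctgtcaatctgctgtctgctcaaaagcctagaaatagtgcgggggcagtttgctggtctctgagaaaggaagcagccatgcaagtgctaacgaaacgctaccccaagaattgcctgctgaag
Acly (chr10:85963582-85963881, minus strand): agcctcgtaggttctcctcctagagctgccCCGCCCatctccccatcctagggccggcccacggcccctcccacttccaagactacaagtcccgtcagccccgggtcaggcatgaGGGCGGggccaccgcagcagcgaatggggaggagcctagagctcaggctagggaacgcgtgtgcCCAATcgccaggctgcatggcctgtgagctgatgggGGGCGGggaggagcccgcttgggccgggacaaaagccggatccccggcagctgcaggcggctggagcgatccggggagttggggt

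The NF-Y box, CCAAT or ATTGG on the other strand, was found in the windows of 6 of the 8 genes (Acacb, Acly, Acss2, Elovl5, Mlxipl and Thrsp), against 37.5% of all 33469 promoter windows. In Thrsp it begins 121 bases and in Acly 71 bases before the start. The GC box, GGGCGG or CCGCCC, was found in 4 of the 8 (Acly, Acss2, Me1 and Thrsp), against 33.1% of all windows. The E-box CACGTG, which reads the same on both strands, was found in Elovl5 alone, against 6.42% of all windows. The SRE letters TCACNCCAC were in none of the 8 and in 1.12% of all windows, and a direct repeat of the half-site AGGTCA spaced by 4 bases was in none of the 8 and in 2 windows in all. No motif match overlapped another in the printed windows, and the Scd1 window held none of the 5 motifs. These matches describe letters in a short window only.

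The deposited values are estimated counts whose totals were 515682.4 and 520275.6 in sleep restriction 1 and 2, and 508202.6 and 520204.5 in forced activity 1 and 2. Such totals are small, so that 1 count was worth 2.04 and 2.03 counts per 1e6 counts (CPM) in sleep restriction 1 and 2, and 2.12 and 1.95 CPM in forced activity 1 and 2. Replicate number ran with the number of genes above 0, which was 14105 and 10952 in sleep restriction 1 and 2, and 14008 and 11943 in forced activity 1 and 2. Sleep restriction 2 held whole numbers in all but 1 row, while the other columns held decimals. Markers of hepatocytes (6 of 6 found) summed to 199816 and 207155 CPM in sleep restriction 1 and 2, and to 195807 and 196176 CPM in forced activity 1 and 2. Alb led each sum, at 134862 and 144506 CPM in sleep restriction 1 and 2, and 124598 and 137947 CPM in forced activity 1 and 2. Of the 6, 2 (Apoa1 and Ttr) were lower in both sleep restriction libraries than in both forced activity libraries, against 15.3% of genes tested. None of the 6 had the opposite order, against 17.2%. These are bulk libraries, in which fewer cells of a type and less RNA per cell cannot be told apart.

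Scd1 varied most of the 10. It had 47.7 and 176 counts in sleep restriction 1 and 2, against 209.3 and 26.9 counts in forced activity 1 and 2. The levels were high in sleep restriction 2 and forced activity 1 and low in the other 2 libraries, and both sleep restriction values lay between the forced activity values. In CPM, with exact (Clopper-Pearson) 95% intervals that cover counting error only, Scd1 measured 97.1 (72.0 to 130) in sleep restriction 1 and 358 (307 to 415) in sleep restriction 2. It measured 444 (385 to 507) in forced activity 1 and 52.4 (34.7 to 76.5) in forced activity 2. The intervals of the high and the low libraries lay far apart, so counting error was smaller than the gap within each group. Scd1 lies on chromosome 1 from 264160129 to 264172729 in the deposited table, for which the submitters' processing notes name the rn6 build.

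Between the 2 libraries of a group, Scd1 was 3.67 times as high in sleep restriction 2 as in sleep restriction 1 (counting interval 2.65 to 5.16, on rounded counts). In forced activity 1 it was 8.42 times as high as in forced activity 2 (5.63 to 13.1). These ratios compare single libraries and not conditions. Group means were 228 ± 185 CPM under sleep restriction and 248 ± 277 CPM under forced activity (SD, n = 2 each), so the spread within a group exceeded the difference between groups. The log2 change of sleep restriction over forced activity was -0.11 (SE 1.20), with an adjusted p of 0.99997 in edgeR. Within replicate number 1 the difference was -2.15 on the log2 scale and within replicate number 2 it was 2.68. Single libraries set the sign of the fitted change: leaving out forced activity 1 gave 2.04 and leaving out sleep restriction 1 gave 0.52, while it was -0.95 with forced activity 2 left out and -1.30 with sleep restriction 2 left out. Scd2, a closely related desaturase gene 87.7 kb away in the table, had 7.4 and 3 counts in sleep restriction 1 and 2, against 6.5 and 7.6 in forced activity 1 and 2. How reads shared by the pair were assigned was not stated in the labels.

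**Figure D1:**
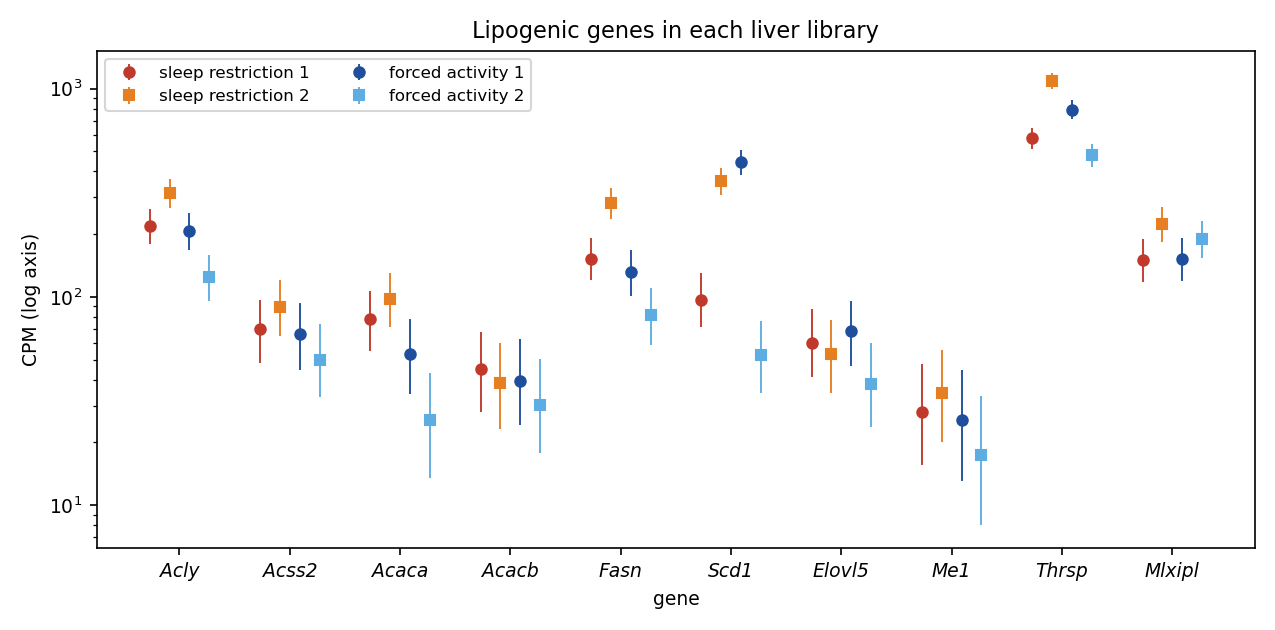
Level of each of the 10 genes in each library, in CPM on a log axis, with exact 95% counting intervals as bars; sleep restriction libraries in warm and forced activity libraries in blue colours. Scd1 spans 52.4 to 444 CPM with both groups at both ends, while Acaca and Fasn have both sleep restriction libraries above both forced activity libraries.

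Acetyl-CoA for the pathway comes from citrate or acetate. Acly, the ATP-citrate lyase that makes cytosolic acetyl-CoA from citrate, had 107.4 and 155 counts in sleep restriction 1 and 2, against 97.6 and 64 counts in forced activity 1 and 2. Both sleep restriction libraries lay above both forced activity libraries, by little for replicate number 1 and by much for replicate number 2. The means were 267 ± 68.4 CPM under sleep restriction and 166 ± 58.1 CPM under forced activity (SD, n = 2 each), a log2 change of 0.67 (SE 0.28). Acss2, the cytosolic acetyl-CoA synthetase that takes up acetate, had 34.4 and 44 counts in sleep restriction 1 and 2, against 31.2 and 25.5 counts in forced activity 1 and 2. The groups again did not overlap in CPM. In both genes the counting intervals of the nearest libraries overlapped, at 178 to 263 CPM in sleep restriction 1 and 169 to 253 CPM in forced activity 1 for Acly, and at 47.9 to 96.7 CPM in sleep restriction 1 and 44.6 to 93.2 CPM in forced activity 1 for Acss2. The log2 change of Acss2 was 0.43 (SE 0.25). Leaving out forced activity 2 lowered the changes to 0.35 in Acly and 0.25 in Acss2, and leaving out sleep restriction 2 lowered them to 0.38 in Acly and 0.23 in Acss2. With forced activity 1 left out the change of Acly was 1.07. Acly lies on chromosome 10 from 88392248 to 88442845 and Acss2 on chromosome 3 from 151032952 to 151075856.

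Both acetyl-CoA carboxylases make malonyl-CoA. Acaca encodes the cytosolic enzyme, whose product feeds fatty acid synthesis, and Acacb the form at the mitochondrial surface, whose product restrains fatty acid entry for oxidation. Acaca had 38.5 and 48 counts in sleep restriction 1 and 2, against 25.1 and 13.2 counts in forced activity 1 and 2. Both sleep restriction libraries were above both forced activity libraries, and forced activity 2 was the lowest. The counting intervals of the nearest libraries overlapped, at 54.7 to 106 CPM in sleep restriction 1 and 34.3 to 78.2 CPM in forced activity 1. Mean levels were 88.0 ± 13.7 CPM under sleep restriction and 39.4 ± 19.4 CPM under forced activity (SD, n = 2 each). The fitted log2 change of 1.10 (SE 0.31) was the largest of the 10, and 19 of the 4986 genes tested, Acaca included, had a change as high. It was 0.68 with forced activity 2 left out and 1.64 with forced activity 1 left out. Acacb had 22.2 and 19 counts in sleep restriction 1 and 2, against 18.7 and 15.5 counts in forced activity 1 and 2. Its groups overlapped in CPM, all 4 counting intervals overlapped, and its log2 change was 0.21 (SE 0.26), or 0.04 to 0.38 with 1 library left out. Acaca lies on chromosome 10 from 71536533 to 71719910 and Acacb on chromosome 12 from 48127149 to 48238887.

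Fasn, the synthase that joins malonyl-CoA units into palmitate, had 74.9 and 138 counts in sleep restriction 1 and 2, against 62.1 and 41.8 counts in forced activity 1 and 2. The groups did not overlap, yet sleep restriction 1 (152 CPM) lay closer to forced activity 1 (132 CPM) than to sleep restriction 2 (281 CPM), and the counting intervals of sleep restriction 1 and forced activity 1 overlapped. The means were 217 ± 90.8 CPM under sleep restriction and 106 ± 35.5 CPM under forced activity (SD, n = 2 each), a log2 change of 1.0 (SE 0.32). Leaving out sleep restriction 2 gave 0.50 and leaving out forced activity 2 gave 0.70. Me1, the malic enzyme that makes NADPH for the synthase, had 13.8 and 17 counts in sleep restriction 1 and 2, against 12.1 and 8.9 counts in forced activity 1 and 2. Its order of libraries was that of Fasn, but with so few counts all 4 counting intervals overlapped, and its log2 change was 0.49 (SE 0.29), or 0.27 to 0.72 with 1 library left out. Fasn lies on chromosome 10 from 109987735 to 110005901 and Me1 on chromosome 8 from 94256839 to 94368834.

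Elovl5, an elongase of polyunsaturated fatty acids, had 29.5 and 26 counts in sleep restriction 1 and 2, against 32.3 and 19.5 counts in forced activity 1 and 2. Forced activity held both its highest and its lowest library, and the log2 change was 0.10 (SE 0.28). That change was -0.24 without forced activity 2 and -0.01 without sleep restriction 1. Thrsp, also called Spot 14, encodes a small nuclear and cytosolic protein of lipogenic tissues that is induced by thyroid hormone and carbohydrate. It had 284.4 and 534 counts in sleep restriction 1 and 2, against 374 and 245.9 counts in forced activity 1 and 2. Like Scd1 it was higher in sleep restriction 2 and forced activity 1 than in the other library of each group. Forced activity 1 lay above sleep restriction 1, and the groups overlapped. Its log2 change was 0.39 (SE 0.32), which became -0.14 without sleep restriction 2. Elovl5 lies on chromosome 8 from 85259982 to 85285983 and Thrsp on chromosome 1 from 162381253 to 162385575.

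Mlxipl encodes ChREBP, the carbohydrate-responsive transcription factor that acts on several of these genes. It had 73.7 and 110 counts in sleep restriction 1 and 2, against 71.7 and 97 counts in forced activity 1 and 2. Both replicate 2 libraries were the higher of their group, which no other gene of the 10 showed. The log2 change was 0.13 (SE 0.24), and it was -0.01 without forced activity 1 and -0.19 without sleep restriction 2. Mlxipl lies on chromosome 12 from 24590645 to 24619639.

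The study's comparison asks which liver transcripts differ when sleep restriction is added to forced activity. Of the 10 genes, all of which passed the filter on low counts, 9 had a positive log2 change, against 52.2% of all genes tested. None of the 10 passed an adjusted p of 0.05 in edgeR, against 1 of 4986 genes tested (0.0201%). The smallest adjusted p among them was 0.978. At an unadjusted p under 0.05 in edgeR, 3 were higher (Acaca, Fasn and Acly) and none lower, against 2.91% of all genes higher and 1.34% lower. DESeq2 and limma-voom also called none of the 10. Both sleep restriction libraries lay above both forced activity libraries in 5 genes (Acly, Acss2, Acaca, Fasn and Me1), against 17.2% of all genes tested, and in the opposite order in none, against 15.3%. Since the set was chosen with this contrast known, nothing is read from these counts.

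The median log2 change of the 10 was 0.41, beside 0.00 over all genes tested. It was uneven between replicate numbers, at 0.08 within replicate number 1 and 1.01 within replicate number 2, where all genes had 0.00 and 0.01. The difference was larger within replicate number 2 in all 10 genes, against 50.6% of all genes. Its excess over that within replicate number 1 equals the sum of the gaps within the groups given below, so these are not separate observations. In Acly the differences were 0.08 and 1.31 within replicate numbers 1 and 2, in Acaca 0.53 and 1.77, and in Fasn 0.21 and 1.74. In Thrsp they were -0.45 and 1.18, and Scd1, Elovl5 and Mlxipl also had opposite signs. That made 4 of the 10, near the 43.9% of all genes tested with opposite signs. Replicate number ran with the number of genes above 0 in a library, whose part in this unevenness was not tested. With 1 library left out, the median of the 10 was 0.76 when that library was forced activity 1, 0.26 when it was forced activity 2, 0.59 when it was sleep restriction 1 and 0.26 when it was sleep restriction 2.

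**Figure D2:**
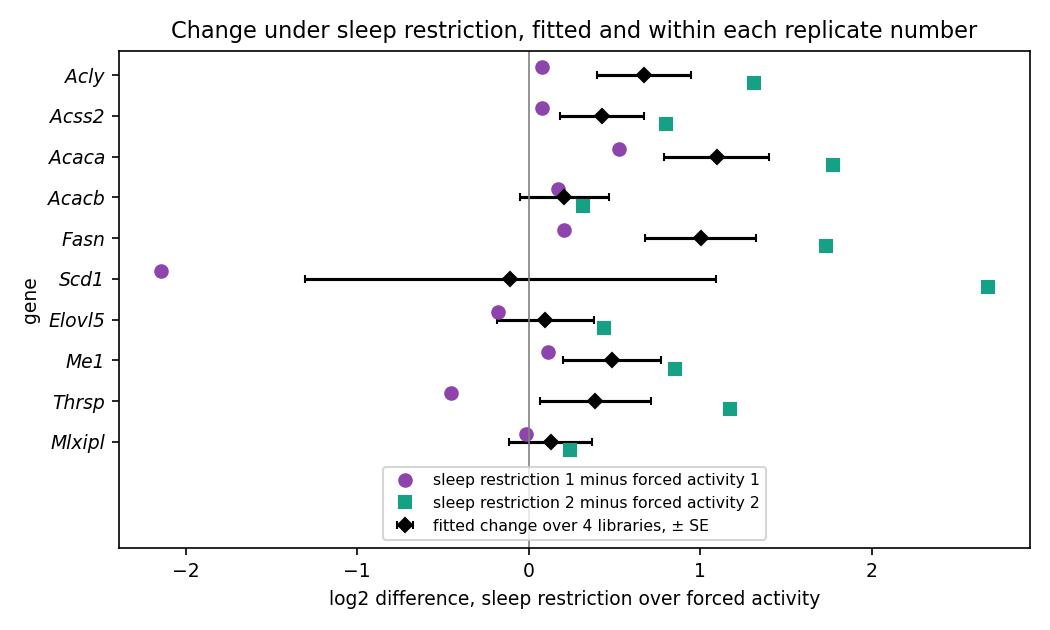
Log2 difference of sleep restriction over forced activity for each gene: the fitted change with its SE (diamonds), and the differences within replicate number 1 (circles) and 2 (squares). The replicate number 2 difference lies to the right in every gene, and for Scd1 the differences are -2.15 and 2.68.

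The same values can be set out as differences between the libraries of 1 group. Forced activity 2 was the lowest of the 4 libraries in 9 of the 10 genes, all but Mlxipl, while it was the lowest in 27.5% of all genes tested. Sleep restriction 2 was the highest in 7 of the 10, against 32.2% of all genes. Summed over the 10 genes, the level was 1479 and 2578 CPM in sleep restriction 1 and 2, and 1979 and 1087 CPM in forced activity 1 and 2. The sum was led by Thrsp, and its order of libraries was sleep restriction 2, forced activity 1, sleep restriction 1 and forced activity 2. That order did not hold gene by gene. Sleep restriction 1 lay above forced activity 1 in Acly, Acss2, Acaca, Acacb, Fasn and Me1, and below it in Scd1, Elovl5, Thrsp and Mlxipl.

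Within sleep restriction, 8 of the 10 genes were higher in library 2 than in library 1, against 49.7% of all genes tested. Their median log2 difference was 0.43, beside 0.00 over all genes. Within forced activity, 9 of the 10 were higher in library 1 than in library 2, against 51.2% of all genes tested. The median log2 difference in that direction was 0.69, beside 0.01 over all genes. This order was not particular to the 10. Among the lists described below it held in 10 of 12 carbon and NADPH supply genes (median 0.37) and 7 of 8 elongation and desaturation genes (0.46). It also held in 9 of 11 triglyceride genes (0.22). In the regulators it held in 8 of 13 (0.10), and that share, 61.5%, was near the 51.2% of all genes. Of the 10, 7 were higher in both sleep restriction 2 and forced activity 1 than in the other library of the group, as were 20.6% of all genes. Scd1 stood far out in both, at 1.84 within sleep restriction and 2.99 within forced activity, and no other gene tested reached both values. Fasn had 0.86 and 0.67, and Thrsp 0.90 and 0.72; 9 and 7 genes tested, each gene itself included, reached both of these pairs. Acaca had 0.30 within sleep restriction and 0.94 within forced activity, so it separated the forced activity libraries more. The range over the 4 libraries was 2.99 on the log2 scale for Scd1, 1.77 for Acaca and 1.74 for Fasn, and 0.52 for Acacb, beside a median of 0.53 over all genes. The set was chosen with the Scd1 level of each library known, so nothing is read from the counts and ranks of libraries given here and above.

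**Figure D3:**
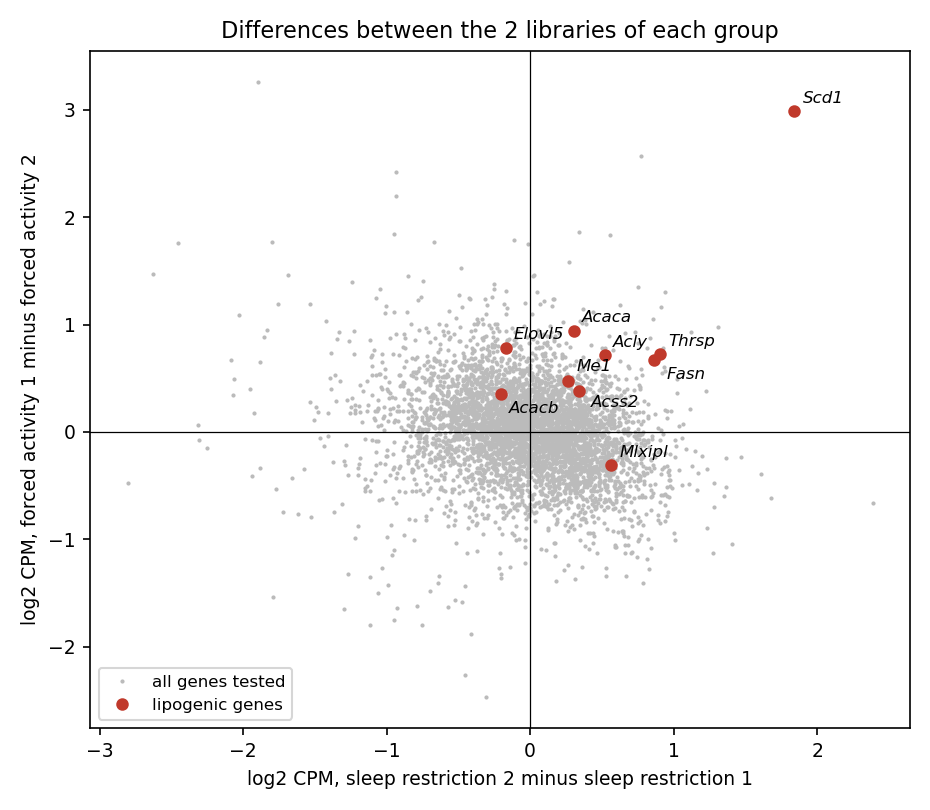
Difference between the 2 libraries of each group for every gene tested, in log2 CPM: sleep restriction 2 minus 1 on the x axis and forced activity 1 minus 2 on the y axis. Scd1 lies alone at 1.84 and 2.99, and Fasn and Thrsp lie at the edge of the cloud of all genes.

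Other genes of the pathway were taken from lists chosen, like the 10, with earlier results known. None of their members passed the adjustment in edgeR. Among 15 regulators, 13 were tested, 7 had a positive change and the median was 0.08, with 2 of 13 at an unadjusted p under 0.05 in edgeR, both higher, beside 2.91% higher and 1.34% lower over all genes. By the same measure 1 of 12 carbon and NADPH supply genes, 0 of 8 elongation and desaturation genes, 1 of 11 triglyceride genes and 0 of 10 fasting-induced rows were higher, and none in these lists was lower. Insig1, which retains SREBP in the endoplasmic reticulum and is itself an SREBP target, had 57.6 and 62 counts in sleep restriction 1 and 2, against 41.6 and 26.9 counts in forced activity 1 and 2 (log2 change 0.76, SE 0.26). Prkaa2, a catalytic subunit of the AMP-activated kinase that inhibits the carboxylases, had 28.5 and 19 counts in sleep restriction 1 and 2, against 15.3 and 11.6 counts in forced activity 1 and 2 (0.72, SE 0.29). Srebf1, the gene of SREBP-1 and chosen after its values were seen, had 75.2 and 105 counts in sleep restriction 1 and 2, against 61.2 and 87.7 counts in forced activity 1 and 2. As with Mlxipl, its replicate 2 libraries were the higher of each group, so that its order did not follow that of Scd1.

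Of 16 genes that supply carbon or NADPH, 12 were found by symbol and tested, 8 of them positive, with a median log2 change of 0.03. Aco1, the cytosolic aconitase, had a log2 change of -0.23 (SE 0.24). Of 11 genes of elongation and desaturation, 8 were tested, 6 of them positive, with a median of 0.07; Hacd2, a dehydratase of the elongation cycle, had -0.38 (SE 0.27) and Elovl1, an elongase of saturated chains, had 0.47 (SE 0.39). Of 18 genes of triglyceride assembly and lipid droplets, 11 were tested, 6 of them positive, with a median of 0.04. Lpin1, a phosphatidate phosphatase, had 45.4 and 27 counts in sleep restriction 1 and 2, against 24.1 and 12.8 counts in forced activity 1 and 2 (0.89, SE 0.34), and Dgat1, which makes the last bond of triglyceride, had -0.37 (SE 0.29).

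Genes known to be induced by fasting were set beside the lipogenic genes. Of 12 such genes, 10 rows were tested, 7 of them positive, with a median log2 change of 0.11. Within sleep restriction 9 of the 10 rows were higher in library 1 than in library 2, where the lipogenic genes mostly had the opposite order. Library 2 was the higher there in 49.7% of all genes tested. Pck1, the first committed enzyme of gluconeogenesis and chosen after its values were seen, had 1493.4 and 562 counts in sleep restriction 1 and 2, against 1095.2 and 1055.4 counts in forced activity 1 and 2. The sleep restriction libraries lay at both ends and the forced activity libraries close together. Igfbp1, which insulin represses, was also chosen after its values were seen and had 51.2 and 12 counts in sleep restriction 1 and 2, against 24.4 and 23.2 counts in forced activity 1 and 2. G6pc, glucose-6-phosphatase, had 2 rows; one had 396 and 55 counts in sleep restriction 1 and 2, against 79 and 120 counts in forced activity 1 and 2, and the other 17.3 and 27, against 15 and 15. Pdk4, which shuts down pyruvate dehydrogenase, had 13.8 and 4 counts in sleep restriction 1 and 2, against 20.8 and 15.4 counts in forced activity 1 and 2 (log2 change -0.86, SE 0.41). Within forced activity 8 of the 10 rows were higher in library 1 than in library 2, the order that most lipogenic genes had there. Of all genes tested, 51.2% had that order. The log2 differences of the rows within forced activity ran from -0.95 in Tat to 1.19 in Irs2, both chosen after their values were seen. They were 0.17 in Pck1, 0.18 in Igfbp1 and 0.50 in Pdk4. Feeding was not recorded in the sources used here, and its part in these differences was not tested.

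**Figure D4:**
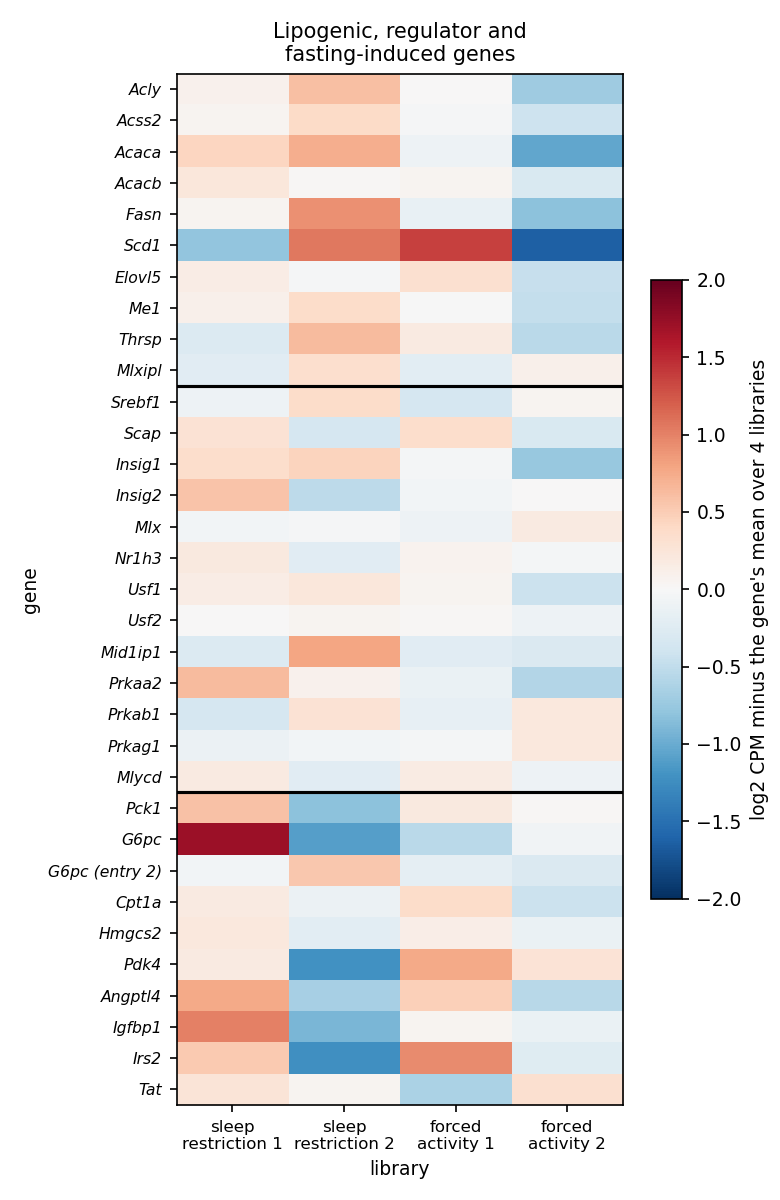
Log2 CPM of each tested gene minus its mean over the 4 libraries, in columns of sleep restriction 1 and 2 and forced activity 1 and 2; black lines divide lipogenic, regulator and fasting-induced genes. In sleep restriction 2 the column is red for most lipogenic genes and blue for Pck1, Igfbp1 and Pdk4, while in forced activity 2 it is blue for 9 of 10 lipogenic genes.

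Genes with the pattern most like that of Scd1 or Fasn were found by the Euclidean distance between log2 CPM values, each centred on its mean over the 4 libraries. For Scd1 the nearest were Clca2, Dbp, Cyp2c12, Arhgef19 and Ero1l, at distances of 1.11 to 1.47, against a median of 2.52 over all genes. Dbp, a clock-controlled transcription factor, had 38.2 and 57 counts in sleep restriction 1 and 2, against 69.4 and 19.7 counts in forced activity 1 and 2. It shared the order of the libraries with Scd1 but not the size of the gaps, and the nearest gene, Clca2, had at most 11 counts. Counts in forced activity 2 were also low in Arhgef19 (2.8), Ero1l (3) and Cyp2c12 (8.5). For Fasn the nearest were Top1, Esf1, Hmgcs1, Bcl6 and Tnrc18, at distances of 0.118 to 0.233, against a median of 1.29 over all genes. Hmgcs1, an early enzyme of cholesterol synthesis, had 230.3 and 442 counts in sleep restriction 1 and 2, against 170.5 and 120.9 counts in forced activity 1 and 2. The other neighbours of Fasn had few counts in forced activity 2: Esf1 3.9, Tnrc18 4.8, Top1 8.3 and Bcl6 8.9. Among the 10 genes themselves, Acly was the nearest to Fasn, at 0.369, and Acss2 and Me1 were the closest pair, at 0.0916. Scd1 lay farther from the other 9 than these lay from each other, at distances of 1.74 (to Thrsp) to 2.50 (to Mlxipl). These were nonetheless below the median of 2.52 from Scd1 to all genes.

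Markers of other cell types also differed between libraries. The 9 of 10 endothelial markers found by symbol summed to 540 and 287 CPM in sleep restriction 1 and 2, and to 217 and 551 CPM in forced activity 1 and 2, with none at 0. They were high in sleep restriction 1 and forced activity 2, where Scd1 and Thrsp were low. Red cell genes (5 of 5) summed to 1171 and 680 CPM in sleep restriction 1 and 2, and to 866 and 1778 CPM in forced activity 1 and 2. Macrophage markers (7 of 7) summed to 653 and 472 CPM in sleep restriction 1 and 2, and to 376 and 541 CPM in forced activity 1 and 2. Stellate markers (6 of 6) summed to 724 and 541 CPM in sleep restriction 1 and 2, and to 652 and 574 CPM in forced activity 1 and 2. Bile duct markers (5 of 5) summed to 28.3 and 24.4 CPM in sleep restriction 1 and 2, and to 37.1 and 30.2 CPM in forced activity 1 and 2. Both sums were higher in forced activity 1 than 2, unlike the endothelial, red cell and macrophage sums. The part of these cells in the lipogenic differences was not tested. Fat cells express the same pathway, and of 7 adipocyte markers 4 (Adipoq, Lep, Plin1 and Retn) were at 0 in all 4 libraries, where a count of 0, taken as a limit of 3 counts in a library, allows up to 6.11 and 6.10 CPM in sleep restriction 1 and 2, and 6.36 and 5.84 CPM in forced activity 1 and 2. The 7 together summed to 29.5 and 16.3 CPM in sleep restriction 1 and 2, and to 19.9 and 22.4 CPM in forced activity 1 and 2. Cfd led each sum, at 23.2 and 12.2 CPM in sleep restriction 1 and 2, and 18.6 and 22.4 CPM in forced activity 1 and 2. Fabp4, chosen after its values were seen, was below the filter on low counts. It had 2.8 and 2 counts in sleep restriction 1 and 2, against 0.6 and 0 in forced activity 1 and 2.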

How the data were processed

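Liver RNA was extracted with TRIzol and made into Illumina libraries from purified, fragmented messenger RNA, per the labels' protocols. CASAVA, STAR 2.4.1d and the rn6 build are named in the submitters' processing notes, with no role or order, and a counting program was not given in the sources used here. Values deposited by the authors are estimated counts for each Ensembl gene, in multiples of 0.1. Words in the table's name mark sense-strand counts averaged over 10, as repeated draws of reads down to the shallowest library's depth would give. Such averages carry less counting noise than plain counts, so the counting intervals are too wide for some libraries.

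Values were rounded and tested in edgeR 4.0.16 (R 4.3.3), with TMM factors, filterByExpr at a minimum count of 10, robust quasi-likelihood (the newer form of glmQLFit) and Benjamini-Hochberg adjustment over 4986 genes, with calls at an adjusted p below 0.05. The 16 rows with no symbol kept their identifiers and held 0.0437% to 0.0563% of each total. CPM were calculated from the unrounded values with the TMM factors, and log2 CPM and log2 changes used a prior count of 2. A change's SE was calculated back from its F statistic. The test was checked on simulated data. Alternatives used DESeq2 1.42.0, limma 3.58.1, other scalings, filters and a replicate block. Members, lists and tests were chosen with earlier results of these data known. Named from each list are the 2 genes with the smallest unadjusted p, and from each likeness search the 5 nearest. A gene that this rule names is not reported here. The older quasi-likelihood and a 10-fold weighting of replicate 1 columns were added after seeing the data. Replicate numbers were not taken as pairs.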

Additional observations from a re-analysis of the deposited data

How the results depend on the processing

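No lipogenic gene was called under any alternative run, and the median log2 change of the 10 stayed positive, from 0.31 with replicate 1 columns weighted 10-fold to 0.41 with the older quasi-likelihood, and from 0.26 to 0.76 with 1 library left out. The count of genes called over the whole table was 1 in the fit reported. It was 0 without robust estimation, without a gene filter and with limma-voom, 2 with replicate 1 columns weighted 10-fold, 11 with the replicate block, and 0 to 0 with 1 library left out, a fit in which the single library left in a group borrows the spread of the other group. The log2 change of Scd1 was 0.11 with the replicate block and 0.30 with limma-voom, and that of Elovl5 was -0.037 with replicate 1 columns weighted 10-fold. With 1 library left out the change ran from -1.30 to 2.04 for Scd1, -0.24 to 0.51 for Elovl5, -0.19 to 0.37 for Mlxipl and -0.14 to 0.79 for Thrsp, and the other 6 kept a positive sign. Nothing in the labels ties equal replicate numbers to 1 animal or day. The correlation of deviations from the group mean between libraries of equal number was 0.206. With 2 libraries a group, both replicate numbers must give this same value. The smallest adjusted p of a lipogenic gene under the block was 0.337 (Acaca). The cause of these shifts was not tested. Depth limits the genes of low count, such as Me1 with 8.9 to 17 counts a library and Acacb with 15.5 to 22.2.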
